A study of Mus musculus with 12 samples.

Results

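The 10 genes described here are immediate early genes of the serum response, namely *Egr1*, *Egr2*, *Egr3*, *Fos*, *Fosb*, *Jun*, *Junb*, *Ier2*, *Atf3* and *Nr4a1*. They were chosen by name from 23715 genes, after *Egr1* had been seen to be low in calvaria that lack *Med23*, so that its change could be set beside those of its relatives. All 10 passed the filter on low values and were among the 13059 genes tested. RNA-seq was performed on the calvaria (skull vault) of 12 newborn C57BL/6 mice in 4 groups of 3 mice. The *Med23* set compared control mice (P-Ctrl, labelled WT, littermates that the study's legends give as *Med23* fl/fl) with mice in which *Med23* was deleted in mesenchymal stem cells by Prx1-Cre (P-KO, called *Med23*-/- here). The *Runx2* set compared WT mice (R-WT) with *Runx2*+/- mice (R-Het). The labels give newborn calvaria, and the study's methods give parietal bone on the second day after birth. Prx1-Cre is known to act mainly in limb and craniofacial mesenchyme, so that cells of other origin in the same tissue may keep the gene, and which cells lost it was not tested. The values are FPKM, in which the fragments of a transcript are divided by its length and by the mapped fragments of the library, summed over the RefSeq transcripts of each gene.

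Immediate early genes are transcribed within minutes of a signal such as serum, a growth factor or mechanical strain, with no need for new protein. The signal passes through the ERK kinases to ETS factors of the ELK group, which sit with serum response factor (SRF) at CArG boxes, and in several of the genes through CREB at cAMP response elements. MED23, a subunit of the Mediator complex, is known as the contact of phosphorylated ELK1 and as a coactivator at *Egr1*. The products are mostly transcription factors, namely the EGR zinc finger proteins, and the FOS, JUN and ATF proteins that pair to form AP-1. In bone, AP-1 proteins are known for roles in osteoblasts and osteoclasts. These mRNAs are short-lived, and their level in dissected tissue is known to move with handling.

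The promoters of 4 members are shown. Of these, 2 are from genes that fell in *Med23*-/- calvaria (*Egr2* and *Junb*) and 2 from genes that did not pass the test (*Fos* and *Nr4a1*). All 4 held the short element TGACG near the start site, in 1 to 4 copies, and only *Egr2* held a CArG box there. These 4 were picked after the values and the motif matches had been seen. Each line gives the 250 bases before the start site, from the RefSeq promoter table of build GRCm38.p6, written on the gene's strand, with the CArG box and the short element TGACG in capitals. TGACG begins the cAMP response element TGACGTCA, and a match on the opposite strand reads as its reverse complement.
Egr2 (chr10:67537619-67537868, + strand): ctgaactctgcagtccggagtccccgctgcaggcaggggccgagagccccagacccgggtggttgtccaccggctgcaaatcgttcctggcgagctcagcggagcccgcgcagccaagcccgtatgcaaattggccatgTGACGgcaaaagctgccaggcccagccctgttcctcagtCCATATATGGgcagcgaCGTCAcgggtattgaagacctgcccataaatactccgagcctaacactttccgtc
Fos (chr12:85473640-85473889, + strand): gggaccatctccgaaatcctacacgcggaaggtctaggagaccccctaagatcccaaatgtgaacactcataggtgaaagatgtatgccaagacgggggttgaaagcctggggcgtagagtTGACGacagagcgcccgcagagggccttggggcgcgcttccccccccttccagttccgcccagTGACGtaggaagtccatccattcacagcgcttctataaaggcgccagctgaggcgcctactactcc
Junb (chr8:84978749-84978998, - strand): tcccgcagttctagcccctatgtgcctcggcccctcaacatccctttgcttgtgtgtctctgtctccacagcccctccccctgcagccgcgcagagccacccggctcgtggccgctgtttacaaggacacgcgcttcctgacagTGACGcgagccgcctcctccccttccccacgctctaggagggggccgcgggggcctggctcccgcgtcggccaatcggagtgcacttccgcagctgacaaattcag
Nr4a1 (chr15:101266596-101266845, + strand): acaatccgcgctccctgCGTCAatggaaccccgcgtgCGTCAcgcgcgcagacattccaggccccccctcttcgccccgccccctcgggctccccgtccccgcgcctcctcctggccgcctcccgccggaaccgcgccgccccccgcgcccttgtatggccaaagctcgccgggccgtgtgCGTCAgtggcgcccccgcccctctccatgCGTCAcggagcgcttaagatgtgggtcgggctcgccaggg

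The *Egr2* window shown, at the start of the transcript measured in the files, held 1 CArG box, beginning 72 bases before the start site, with TGACG at 111 and 55 bases before it on either side. Of the 5 *Egr2* windows in the table, the one farthest upstream held neither element and the next held a CArG box without TGACG. *Fos* held TGACG at 129 and 66 bases before the start, *Junb* at 106, and *Nr4a1* at 233, 213, 69 and 40. Among the other members with a window, *Fosb* held 1 TGACG, 60 bases before the start, *Atf3* held 1 at 7 bases, and *Jun* held neither element. GCGNGGGCG, the letters bound by EGR proteins, were found in *Nr4a1* (60 bases before the start) and *Fosb* (50 bases). None of the 7 members with a window held the whole TGACGTCA, the AP-1 site TGANTCA or the ETS letters CCGGAAGN and ACCGGAAG there. Of the 32851 windows of the table, both strands read, 1.47% held a CArG box, 17.8% TGACG, 1.55% TGACGTCA, 6.75% the AP-1 site, 4.7% the EGR letters and 6.89% the ETS letters. The matches describe letters only, and elements farther from the start site were not searched. Windows of *Egr1*, *Egr3* and *Ier2* were not used here.

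Some facts of the libraries bear on every value. About 7800000 to 11700000 fragments stood behind each library, an estimate from the smallest values that is rough. *Med23*, the deleted gene, stood at 5.99, 5.42 and 4.54 FPKM in control mice and at 4.89, 5.74 and 5.28 FPKM in *Med23*-/- mice. The loxP sites flank only a few of its exons, so that its summed FPKM is a weak check of the deletion. *Runx2* stood at 29.8, 37.7 and 27.3 FPKM in WT and at 34.3, 30.4 and 35.7 FPKM in *Runx2*+/- mice, and did not pass the test (limma, adjusted p = 0.796). In the *Med23* set *Runx2* ranged from 30.5 to 38.0 FPKM in controls and from 23.7 to 28.7 FPKM in *Med23*-/- mice. It was lower in every mutant mouse (a pattern of 7.68% of all tested genes) without passing (limma, -0.40, SE 0.12, adjusted p = 0.127). By *Xist*, 2 of the *Med23* controls and 1 of the *Runx2* controls were female, and 0 of the mutant mice were. Sex and genotype thus overlap in part. Of 5 sex genes 0 passed in either set (limma). At an unadjusted p under 0.05, 1 was lower and 3 higher in the *Med23* set, beside 5.63% and 15.7% of all tested genes. In the *Runx2* set there were 0 of each. Fewer cells of a type and less RNA per cell cannot be told apart in bulk tissue.

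In *Med23*-/- calvaria, *Egr1* did not stand alone. *Egr1*, *Egr2*, *Egr3*, *Junb* and *Ier2* were lower in every *Med23*-/- mouse than in every control mouse, *Fos* and *Nr4a1* were lower on average with overlapping groups, and the groups of *Fosb*, *Jun* and *Atf3* overlapped as well, with the mutant mean lower for *Fosb* and higher for *Jun* and *Atf3*. Of the 10 members, 5 passed an adjusted p of 0.05 in the fit over all genes (limma) as lower and 0 as higher, where 0.559% of all tested genes passed as lower and 1.01% as higher. At an unadjusted p under 0.05, 7 were lower (*Fos* and *Nr4a1* being the other 2) and 0 higher, beside 5.63% and 15.7% of all tested genes. The same 5 had groups that did not overlap, a pattern seen in this direction for 7.68% of all tested genes. Since this contrast led to the choice of the members, these counts and the values that follow describe them and test nothing. The median change of the 10 members was -0.75 on the log2(FPKM + 1) scale, against 0.06 over all tested genes.

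**Figure D1:**
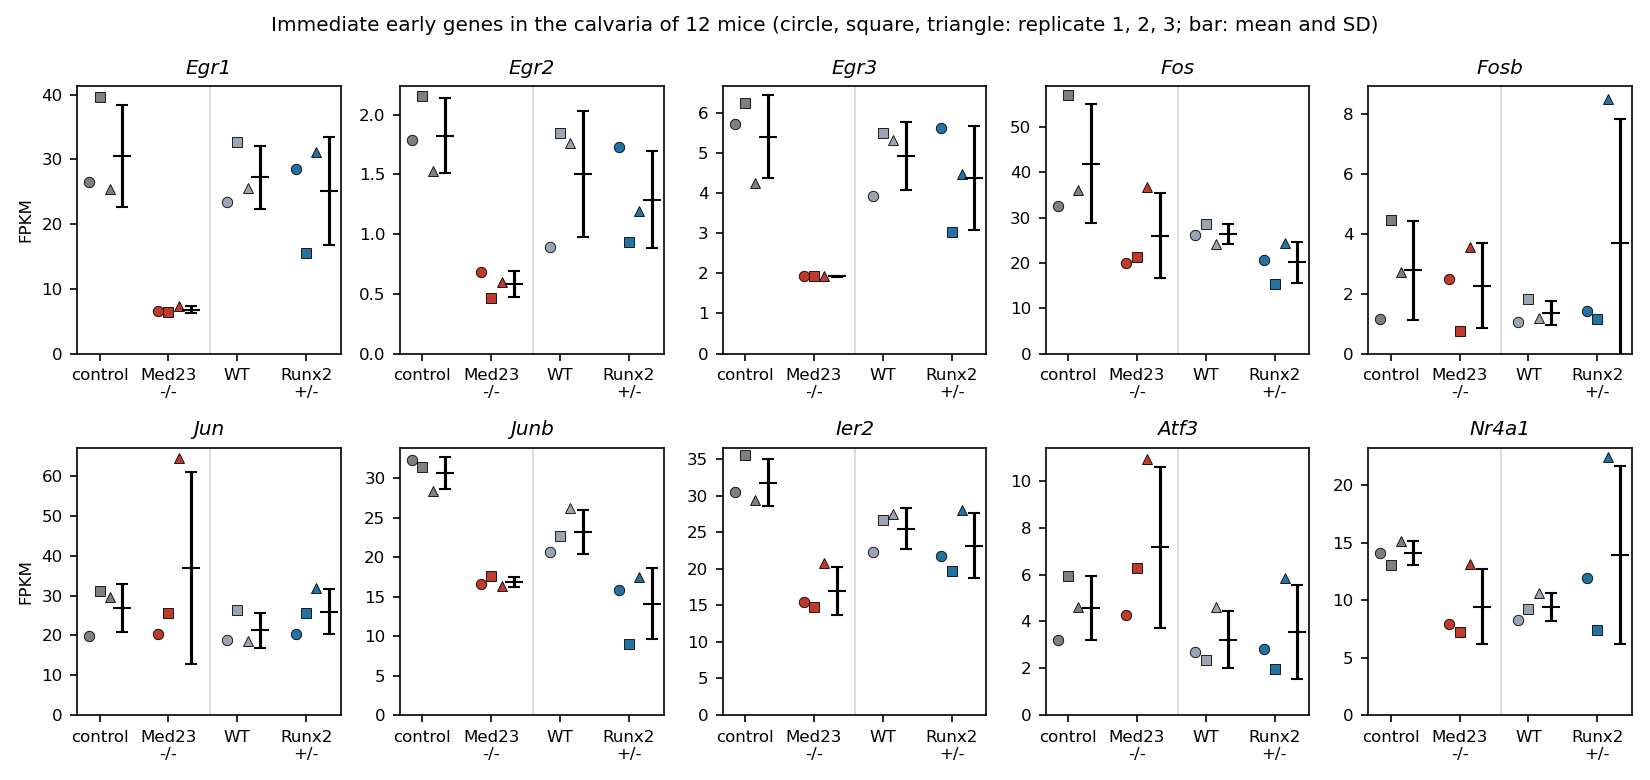
FPKM of the 10 members in each of the 12 mice, on a linear axis for each gene, with circle, square and triangle for replicates 1, 2 and 3 and bars for the mean and SD (n = 3; the lower bar of Fosb in Runx2+/- mice runs below the axis). The Med23-/- mice lie below all controls for Egr1, Egr2, Egr3, Junb and Ier2, and replicate 3 of the Med23-/- and of the Runx2+/- mice stands above its group for several other genes.

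Among the EGR proteins, *Egr1*, the member known for its rapid and large response to growth factors, stood at 26.5, 39.6 and 25.4 FPKM in control mice and at 6.58, 6.38 and 7.35 FPKM in *Med23*-/- mice. The highest mutant value was thus far below the lowest control value. The mean was 4.51-fold lower, 30.5 ± 7.91 against 6.77 ± 0.512 FPKM (SD, n = 3), and the fitted change was -1.99 (SE 0.17) on the log2(FPKM + 1) scale. Only 10 of all tested genes had a lower fitted change.

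*Egr3*, which in many tissues is induced along with *Egr1*, stood at 5.72, 6.26 and 4.26 FPKM in controls and at 1.92, 1.92 and 1.94 FPKM in *Med23*-/- mice. The 3 mutant mice were nearly equal and the mean was 2.81-fold lower (-1.12, SE 0.14). *Egr2*, a regulator best known from Schwann cells and hindbrain, had the lowest mean of the members in both groups of this set, at 1.79, 2.16 and 1.53 FPKM in controls and 0.681, 0.468 and 0.603 FPKM in *Med23*-/- mice. These values do not overlap either, with a mean 3.13-fold lower (-0.83, SE 0.15), but only about 11 to 17 fragments stood behind *Egr2* in each mutant mouse. At such levels the added 1 FPKM shrinks the fitted change, which was -1.49 with 0.1 FPKM added.

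Among the AP-1 genes, *Junb*, whose product restrains JUN at many genes and is needed for bone formation, stood at 32.2, 31.4 and 28.4 FPKM in controls and at 16.6, 17.6 and 16.3 FPKM in *Med23*-/- mice. Both groups were tight and well apart, with a fitted change of -0.83 (SE 0.08), the smallest standard error of the members. *Fos*, whose product pairs with JUN proteins, stood at 32.7, 57.0 and 36.2 FPKM in controls and at 20.03, 21.3 and 36.8 FPKM in *Med23*-/- mice. The third mutant mouse lay inside the control range, and the change of -0.68 (SE 0.27) did not pass the test.

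*Jun*, the partner of FOS in the classical AP-1 pair, stood at 19.9, 31.1 and 29.6 FPKM in controls and at 20.4, 25.7 and 64.6 FPKM in *Med23*-/- mice. One mutant mouse stood above all others, and the change of 0.29 (SE 0.40) turned to -0.20 without it. *Fosb*, whose product is a relative of FOS, ranged from 1.15 to 4.47 FPKM in controls and from 0.743 to 3.57 FPKM in *Med23*-/- mice. *Atf3*, a stress-induced partner of JUN, ranged from 3.21 to 5.94 FPKM and from 4.26 to 10.95 FPKM. For these 2 genes the groups overlapped and the fitted changes were -0.22 (SE 0.43) and 0.49 (SE 0.31).

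*Ier2*, a small early response protein outside these families, stood at 30.5, 35.5 and 29.4 FPKM in controls and at 15.5, 14.7 and 20.8 FPKM in *Med23*-/- mice. Its groups were apart, with a mean 1.87-fold lower (-0.88, SE 0.14). *Nr4a1*, an orphan nuclear receptor, stood at 14.2, 13.1 and 15.2 FPKM in controls and at 7.96, 7.22 and 13.2 FPKM in *Med23*-/- mice. The third mutant mouse just reached the lowest control, and the change was -0.58 (SE 0.20). Replicate 3 held the highest mutant value of 8 of the 10 members, *Egr2* and *Junb* being the exceptions.

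The 5 calls rested on all 6 mice. With 1 mouse left out in turn, between 0 and 2 of the members passed, although the fitted change of *Egr1* stayed between -2.11 and -1.80 and that of *Junb* between -0.88 and -0.79. The count was 2 without the first control, 1 without the second, 0 without the third, 0 without the first or the second *Med23*-/- mouse and 1 without the third. It was 0 among male libraries, which leave 1 control that is assumed to vary like the others, with *Egr1* at -1.83.

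**Figure D2:**
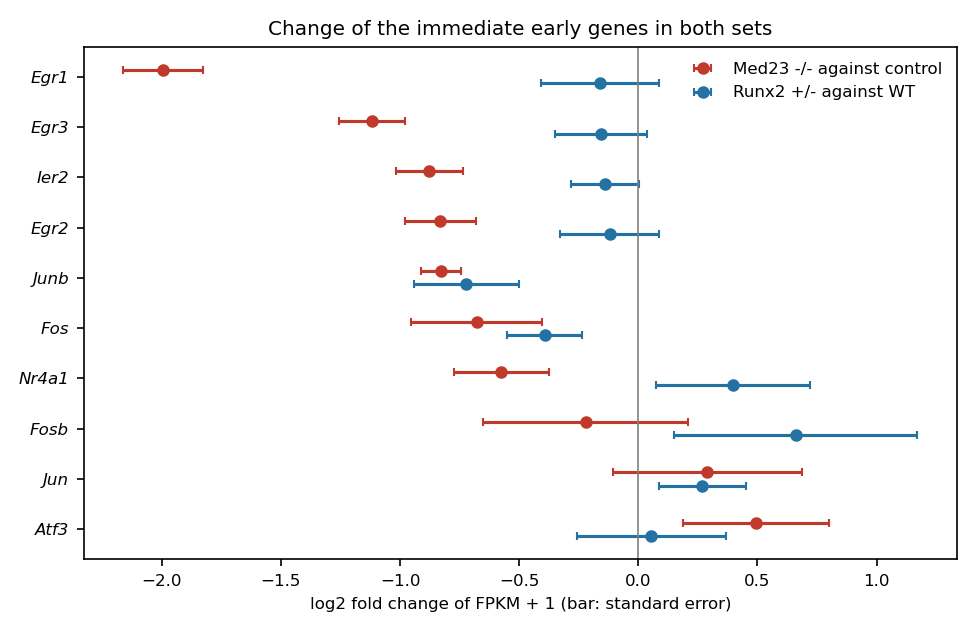
Fitted change of each member on the log2(FPKM + 1) scale in Med23-/- against control mice (red) and in Runx2+/- against WT mice (blue), with bars for 1 standard error and 6 mice in each fit. Egr1 lies at -1.99 in the Med23 set and at -0.16 in the Runx2 set, while Junb lies at -0.83 and -0.72.

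The size of the change differed among the members, which ratios within a mouse show without regard to scaling. *Egr1* stood at 0.696 to 0.813 times *Fos* in control mice and at 0.200 to 0.329 times *Fos* in *Med23*-/- mice. Against *Junb* the ratio was 0.823 to 1.26 in controls and 0.363 to 0.450 in *Med23*-/- mice, and against *Egr3* it was 4.64 to 6.34 and 3.32 to 3.80. In each of these 3 ratios the groups did not overlap, and the other 3 members were themselves lower on average. *Egr1* was chosen after it had been seen to be low in these mice, so the ratios describe it and test nothing. How often other pairs of genes have ratios without overlap was not counted. *Egr1* against *Egr2* had ratios of 14.8 to 18.4 in controls and 9.67 to 13.6 in *Med23*-/- mice, also without overlap, though with few fragments for *Egr2*.

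**Figure D3:**
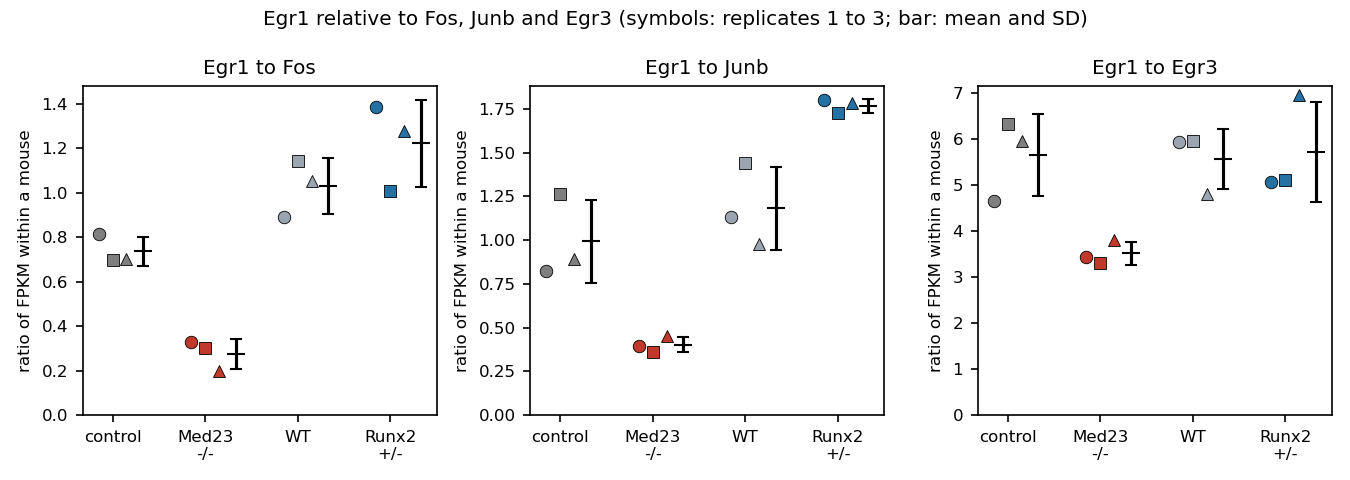
Ratio of Egr1 to Fos, to Junb and to Egr3 in FPKM within each mouse, with symbols for replicates 1 to 3 and bars for the mean and SD (n = 3), on linear axes that start at 0. All 3 ratios are lower in every Med23-/- mouse than in every control, and the ratio to Junb is higher in every Runx2+/- mouse (1.72 to 1.80) than in every WT mouse (0.977 to 1.44).

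Markers of the cell types in the tissue are given beside these values. All 10 osteoblast markers had a lower fitted level in *Med23*-/- calvaria (median -0.48), with a summed level of 42600 to 44310 FPKM in controls and 20679 to 27886 FPKM in *Med23*-/- mice, and 1 of them, *Bglap* (osteocalcin), passed the test as lower and 8 were lower at an unadjusted p under 0.05. Neural and Schwann cell markers summed to 8.73 to 10.8 FPKM in controls and 18.1 to 29.5 FPKM in *Med23*-/- mice, where 4 of 5 were above all controls, 0 passed (limma) and 4 were higher at an unadjusted p under 0.05. Cartilage markers summed to 32.7 to 54.4 and 23.8 to 34.1 FPKM, with *Col2a1* lower and 4 of 5 lower at an unadjusted p under 0.05. Skeletal muscle markers summed to 26.3 to 1605 FPKM and 683 to 4795 FPKM, and macrophage and osteoclast markers (6 of 7 listed had a row) to 4837 to 8210 and 4192 to 5536 FPKM. Endothelial (89.5 to 102 and 95.5 to 97.5), neutrophil (165 to 618 and 65.7 to 289) and epidermal markers (2.23 to 3.15 and 2.94 to 4.15 FPKM) overlapped, and 0 of these or of the muscle and macrophage markers passed (limma). At an unadjusted p under 0.05, 1 endothelial marker was lower, 3 muscle markers were higher and 0 of the neutrophil, macrophage and epidermal markers tested passed. Over all tested genes, 5.63% were lower and 15.7% higher at that level (limma), and 19.6% were above all controls. *Bglap* and *Col2a1* are named here after their values were seen. The part of these cell types in the levels of the 10 members was not tested.

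Other early genes mostly did not pass the test. Of 40 other immediate early genes, 36 were tested, and in *Med23*-/- calvaria 0 passed as lower (limma, adjusted p under 0.05) and 1 as higher, with a median change of -0.05. At an unadjusted p under 0.05, 4 were lower and 2 higher, beside 5.63% and 15.7% of all tested genes. In a model without moderation across genes 0 of each passed the adjusted threshold, as for every list in this set. The 1 was *Tiparp*, an ADP-ribosyltransferase induced by the aryl hydrocarbon receptor, at 12.3, 10.97 and 9.23 FPKM in controls and 17.1, 17.6 and 17.1 FPKM in *Med23*-/- mice (0.63, SE 0.11, adjusted p = 0.045). *Fosl2*, a FOS relative active in osteoblasts, was lower in every *Med23*-/- mouse without passing (15.5 to 23.2 against 12.1 to 15.1 FPKM, -0.47, SE 0.16, adjusted p = 0.156). *Jund* had a fitted change of 0.37 (SE 0.16), *Ier3* of -0.40 (SE 0.19), *Dusp1*, a phosphatase of MAP kinases, of -0.10 (SE 0.33), *Zfp36*, which promotes mRNA decay, of -0.20 (SE 0.15) and *Klf4* of -0.07 (SE 0.12). Groups of *Jund*, *Ier3*, *Dusp1*, *Zfp36* and *Klf4* overlapped.

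Upstream of the members, 25 genes of the serum response were tested, among them *Med23* itself, SRF, its ETS partners and the kinases that reach them. In either direction 0 passed (limma). At an unadjusted p under 0.05, 0 were lower and 2 higher, beside 5.63% and 15.7% of all tested genes. Changes of the 25 genes lay between -0.11 and 0.39 with a median of 0.07. These are mRNA levels, and the phosphorylation of the kinases and ETS factors was not measured here. *Srf* ranged from 7.10 to 9.002 FPKM in controls and from 10.1 to 12.8 FPKM in *Med23*-/- mice (0.39, SE 0.13, adjusted p = 0.149). The ERK kinase gene *Mapk3* had a change of 0.0048 (SE 0.08). The ETS factor genes *Elk1* and *Elk4* had changes of -0.07 (SE 0.09) and 0.08 (SE 0.16). The other branch of SRF targets, cytoskeletal genes served by the MRTF coactivators, had 0 of 15 lower and 3 higher, namely *Tagln* (0.91), *Cnn1* (1.38) and *Myl9* (0.78), named here after their values were seen. All 3 are also genes of smooth muscle and of activated fibroblasts. At an unadjusted p under 0.05 (limma), 1 of the 15 was lower and 7 were higher, beside 5.63% and 15.7% of all tested genes. Above all controls stood 7 of the 15 and below them 1, beside 19.6% and 7.68% of all tested genes.

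Among the partners of EGR and AP-1 proteins, *Nab2*, a corepressor of EGR1 that EGR1 itself induces, stood at 12.4 to 15.5 FPKM in controls and 10.01 to 12.3 FPKM in *Med23*-/- mice (-0.34, SE 0.12, adjusted p = 0.158), and *Nab1* had a change of 0.04 (SE 0.09). Among 10 heat shock genes, which handling can raise, 0 passed as lower and 1, *Hsp90aa1*, as higher (0.59, SE 0.11, named after its value was seen). Their median was 0.36 and 7 of the 10 were above all controls, a pattern seen for 19.6% of all tested genes. The part of tissue handling in the levels of the members was not tested.

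**Figure D4:**
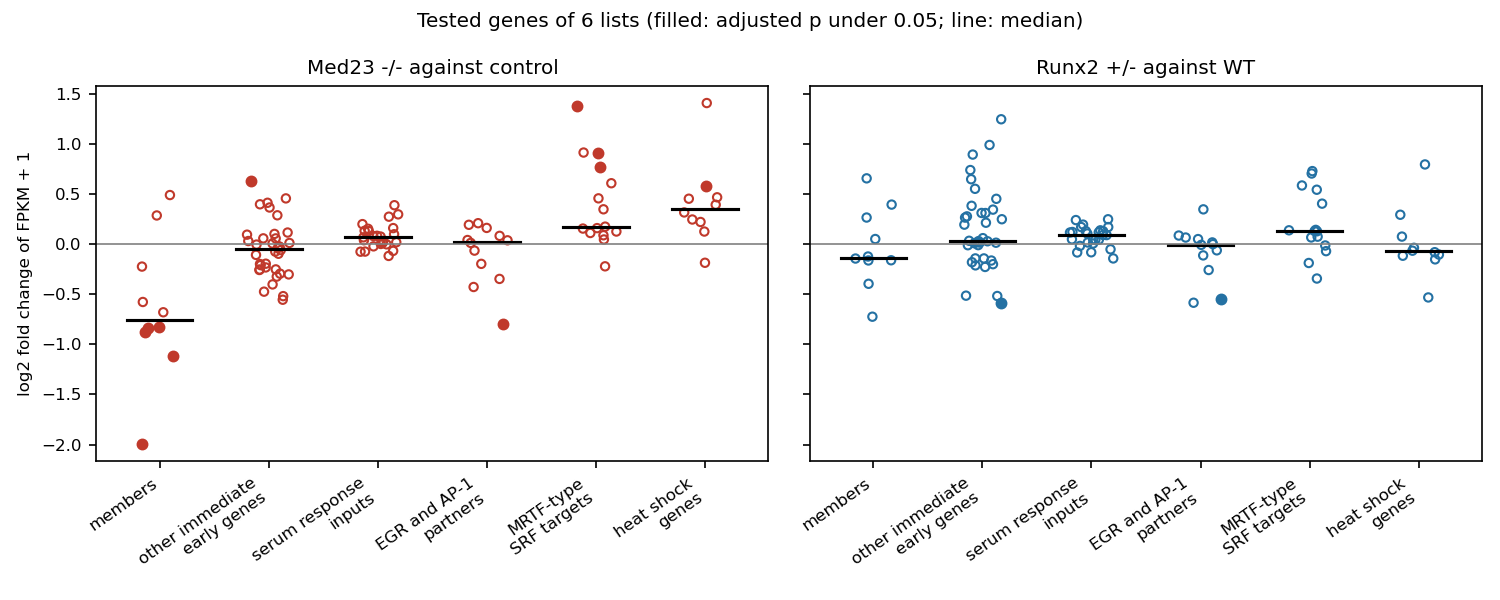
Fitted change on the log2(FPKM + 1) scale of the tested genes of 6 lists in the Med23 set (left) and the Runx2 set (right), with filled circles for genes past an adjusted p of 0.05 (limma, over all 13059 genes) and a line at the median. In the Med23 set the members have a median of -0.75 and the 36 other immediate early genes one of -0.05.

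In *Runx2*+/- calvaria, 0 of the 10 members passed the test in either direction (limma, adjusted p under 0.05), where 1.49% of all tested genes passed as lower and 0.398% as higher. At an unadjusted p under 0.05, 2 members (*Fos* and *Junb*) were lower and 0 higher, beside 8.32% and 7.09% of all tested genes, and in a model without moderation across genes there were 0 of each. The median change of the members was -0.13, against 0.02 over all tested genes. *Junb* alone had groups that did not overlap, in a direction seen for 10.4% of all tested genes.

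*Egr1* stood at 23.4, 32.7 and 25.6 FPKM in WT and at 28.5, 15.5 and 31.1 FPKM in *Runx2*+/- mice (-0.16, SE 0.25, adjusted p = 0.820). The second *Runx2*+/- mouse was below all WT mice and the other 2 were within their range. Without that mouse the change of *Egr1* was 0.14, and the median of the members was 0.09. *Egr3* ranged from 3.94 to 5.49 FPKM in WT and from 3.03 to 5.62 FPKM in *Runx2*+/- mice (-0.16, SE 0.19), and *Egr2* from 0.895 to 1.85 and from 0.936 to 1.73 FPKM (-0.12, SE 0.21). The same mouse held the lowest *Runx2*+/- value of all 3 EGR genes.

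*Junb* stood at 20.7, 22.7 and 26.2 FPKM in WT and at 15.9, 8.99 and 17.4 FPKM in *Runx2*+/- mice. Every mutant value was below every WT value, but the change of -0.72 (SE 0.22) did not pass over all genes (adjusted p = 0.166, and 0.114 to 0.394 with 1 mouse left out). *Fos* stood at 26.2, 28.6 and 24.3 FPKM in WT and at 20.6, 15.4 and 24.3 FPKM in *Runx2*+/- mice, with groups that touched (-0.39, SE 0.16, adjusted p = 0.277). *Jun* ranged from 18.7 to 26.4 and from 20.4 to 31.8 FPKM (0.27, SE 0.18), and *Ier2* from 22.3 to 27.5 and from 19.7 to 28.1 FPKM (-0.14, SE 0.14).

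One *Runx2*+/- mouse, replicate 3, set the values of *Fosb* and *Nr4a1*. *Fosb* stood at 1.05, 1.81 and 1.18 FPKM in WT and at 1.44, 1.14 and 8.49 FPKM in *Runx2*+/- mice, so that the change of 0.66 (SE 0.51) became -0.02 without this mouse. *Nr4a1* stood at 8.28, 9.27 and 10.6 FPKM in WT and at 11.9, 7.39 and 22.5 FPKM in *Runx2*+/- mice, and its change of 0.40 (SE 0.32) became 0.01. *Atf3* ranged from 2.36 to 4.59 and from 1.98 to 5.84 FPKM, with its highest value in the same mouse (0.05, SE 0.31).

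At an unadjusted p under 0.05 (limma), 3 of the 36 other immediate early genes tested were lower in *Runx2*+/- calvaria and 9 higher. Over all tested genes these shares were 8.32% and 7.09%. Below all WT mice stood 4 of the 36 and above them 9, beside 10.4% and 10.7% of all tested genes. At the adjusted threshold 1 passed as lower and 0 as higher. It was *Socs3*, an inhibitor of cytokine receptors, at 13.1, 14.9 and 14.3 FPKM in WT and 9.05, 8.90 and 9.20 FPKM in *Runx2*+/- mice (-0.59, SE 0.08, adjusted p = 0.020). Among the others of the list, *Ier3* (-0.52, SE 0.11, adjusted p = 0.060) was below all WT mice, *Jund* (0.35, SE 0.12, adjusted p = 0.227) and *Klf4* (0.39, SE 0.19, adjusted p = 0.380) were above them (a pattern of 10.7% of all tested genes), and *Fosl2* (-0.22, SE 0.13), *Dusp1* (0.56, SE 0.24) and *Zfp36* (0.01, SE 0.10) overlapped. Of the 25 upstream genes, 0 passed (limma; 0 lower and 1 higher at an unadjusted p under 0.05), with changes between -0.14 and 0.25. Of the 12 partners, *Jdp2*, a repressor of AP-1 that takes part in osteoclast formation, passed as lower, at 82.5, 86.2 and 80.2 FPKM in WT and 52.1, 55.4 and 61.9 FPKM in *Runx2*+/- mice (-0.55, SE 0.09, adjusted p = 0.032). In the *Med23* set *Jdp2* was also lower in every mutant mouse (a pattern of 7.68% of all tested genes) without passing. It ranged there from 79.9 to 105 FPKM in controls and from 65.8 to 68.2 FPKM in *Med23*-/- mice (limma, -0.43, SE 0.11, adjusted p = 0.098). Of 15 MRTF-served genes and 10 heat shock genes, 0 passed in this set (limma), while at an unadjusted p under 0.05 1 and 0 were lower and 4 and 1 higher.

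Skeletal muscle RNA separated the *Runx2* groups. All 11 muscle markers passed as lower in *Runx2*+/- mice, with a summed level of 2203 to 6583 FPKM in WT and 29.5 to 211 FPKM in *Runx2*+/- mice. Osteoblast markers summed to 34649 to 39492 and 24865 to 32119 FPKM, with 0 of 10 past the test (limma) and 2 lower at an unadjusted p under 0.05. Only 5 of the 10 had a lower fitted level, and their median change was -0.0013. Macrophage and osteoclast markers summed to 5261 to 6540 and 3543 to 4384 FPKM. Endothelial markers summed to 93.6 to 101 and 69.1 to 77.4 FPKM, with *Pecam1* lower (named after its value was seen). Neutrophil markers (290.2 to 455 and 69.8 to 372 FPKM), neural markers (9.41 to 14.1 and 9.63 to 14.1 FPKM), cartilage markers (21.2 to 35.8 and 31.3 to 72.0 FPKM) and epidermal markers (2.66 to 3.56 and 3.53 to 4.41 FPKM) overlapped, and 0 of these or of the macrophage markers passed (limma). At an unadjusted p under 0.05, all 4 neutrophil markers tested and 4 of 6 macrophage and osteoclast markers were lower, 1 cartilage marker was higher and 0 neural or epidermal markers passed. Over all tested genes, 8.32% were lower and 7.09% higher at that level (limma). Muscle and genotype cannot be told apart in these 6 mice, and the part of the other cell types in the levels of the members was not tested.

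The changes of the members in both sets can be set side by side, since the sets share no mice. The change in the *Med23* set minus that in the *Runx2* set was -1.83 (SE 0.34) for *Egr1*, -0.97 (SE 0.43) for *Nr4a1*, -0.96 (SE 0.25) for *Egr3*, -0.74 (SE 0.22) for *Ier2* and -0.71 (SE 0.26) for *Egr2*. It was close to 0 for *Junb* (-0.10, SE 0.26) and *Jun* (0.02, SE 0.49), and -0.28 (SE 0.35) for *Fos*. The differences of *Fosb* and *Atf3* were -0.88 (SE 0.76) and 0.44 (SE 0.49). These differences hold the contrast that led to the choice of *Egr1* and are given without a test. Of all tested genes, 20 (0.153%) passed a test of the difference in the fit of all 12 mice, and no member was among them.

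Deviations of each mouse from its group mean carry no contrast between groups, and over them *Egr1* was compared with each of the other 9 members. Over the 12 mice, Pearson's r was 0.75 and Spearman's rho 0.73 for *Fos* (exact permutation within groups, adjusted p = 0.056 and 0.069 over the 9 pairs), 0.71 and 0.70 for *Ier2* (adjusted p = 0.108 and 0.069), and 0.81 and 0.75 for *Egr3* (adjusted p = 0.123 and 0.1). *Junb* had r of 0.75 and rho of 0.55, *Egr2* 0.67 and 0.71, *Fosb* 0.66 and 0.69, *Nr4a1* 0.60 and 0.30, *Atf3* 0.52 and 0.37, and *Jun* 0.31 and 0.36, with adjusted p for r between 0.156 and 0.231 (exact permutation). None of the 9 pairs passed an adjusted p of 0.05. Without the 2 mice farthest from the median of *Egr1*, r was 0.65 for *Fos*, 0.64 for *Ier2* and 0.67 for *Egr3*. All values of a mouse share 1 library and 1 dissection.

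By the same measure, the 5 genes outside the members most like *Egr1* among 8762 with a mean of at least 5 FPKM were *Zfp362* (r = 0.90), *Jag1* (0.89), *Sbk1* (0.89), *Mknk2* (0.87) and *Herpud2* (0.87). They were chosen for the height of r and carry no test. Each of the 5 had a fitted change between -0.19 and 0.14 in the *Med23* set.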

How the data were processed

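RNA from 12 newborn mouse calvaria (4 groups of 3 individual mice) was sequenced from TruSeq libraries. The deposited files give 1 value for each of 30411 RefSeq transcripts, which the authors estimated and which, from the values, are FPKM. The submitters' processing notes name Bowtie 0.12.8 and mm10, and the program that gave the values is not given in the sources used here. Transcripts were summed by gene. The 396 without a symbol were each kept under their own identifier and are counted among the 23715 genes. limma 3.58.1 (R 4.3.3) with a mean-variance trend was fitted to log2(FPKM + 1), each set on its own 6 mice, with Benjamini-Hochberg adjustment over 13059 genes and a threshold of 0.05. Genes entered if 3 or more of the 12 mice reached 1 FPKM. The script was tested on simulated data. Standard errors are limma's. The count of fragments was estimated from a window of low values that was set after the values had been seen.

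The members and the 15 gene lists (these 10, other immediate early genes, upstream genes, partners, MRTF-served genes, heat shock genes, markers of 8 cell types and sex genes) were chosen with earlier results of these data known. Named were all members, other immediate early genes past the threshold and 6 set ones, 7 set upstream genes and partners and any past the threshold, and the 5 genes most like *Egr1*. Results of 2 genes that this rule names are not reported here. Correlations used all 1296 assignments of mice within groups. Alternatives were another pseudocount, no filter, all 12 mice in 1 fit, a replicate block, 2 rescalings, no moderation, male libraries only and each mouse left out. No column of the files was left unassigned. FPKM estimation by transcript can split reads between relatives, and strand was not given in the sources used here.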

Additional observations from a re-analysis of the deposited data

How the results depend on the processing

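The counts depended on the processing more than the sizes of change. In *Med23*-/- calvaria, 73 genes were lower and 132 higher. These counts were 190 and 527 with all 12 mice in 1 fit, 0 and 0 with male libraries only or with no moderation, 0 and 1 with no filter on low values, and 12 and 23 when genes at 0 in every mouse were also kept, a setting added after the data had been seen. They were 91 and 54 after rescaling by the median ratio and 65 and 42 after rescaling to the same sum, which moved the median change of all genes from 0.06 to -0.03. With 1 mouse left out they were 0 to 13 and 0 to 22. The members lower, 5 as reported and with all 12 mice or the median ratio, were 4 with a pseudocount of 0.1 or the same sum, 0 with no filter (1 with genes at 0 kept), 0 with no moderation (5 at an unadjusted p under 0.05), 0 with male libraries and 0 to 2 with 1 mouse left out. *Tiparp* was the 1 other immediate early gene higher. That count was 0 with no filter, male libraries, no moderation, the block, either rescaling and any mouse left out.

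In *Runx2*+/- calvaria, 195 genes passed as lower and 52 as higher. These counts were 56 and 39 with all 12 mice, 28 and 6 with male libraries, 3 and 2 with no filter (6 and 12 with genes at 0 kept), 1 and 0 with no moderation, and 28 to 135 and 6 to 34 with 1 mouse left out. The 1 other immediate early gene lower became 0 with all 12 mice, male libraries, no filter, no moderation or the same sum, where 1 was higher, and 0 to 1 with 1 mouse left out. The difference between the sets passed for 20 genes, for 1 with male libraries, 6 with no filter (2 with genes at 0 kept), 1 with no moderation, 37 with the same sum and 2 to 164 with 1 mouse left out. The causes were not tested.

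With the replicate number as a block, 3 members were lower in *Med23*-/- mice, the *Runx2* set had 69 genes lower and 21 higher, 0 other immediate early genes passed in either set and 136 genes differed between the sets. Same-numbered mice correlated at 0.18, 0.26 and 0.05 in the *Med23* set, where every mouse correlated best with its own number. In the *Runx2* set they correlated at 0.005, -0.05 and -0.08. The numbers were not taken as pairs in the reported fits. For the *Med23* set these values do not settle whether they are pairs.

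Signs turned only for changes that had not passed. With male libraries *Fosb* became 0.49 in the *Med23* set, *Atf3* -0.0225 in the *Runx2* set and the difference of *Fos* 0.0271. The difference of *Jun* became -0.0781 by the median ratio and -0.11 with the same sum. With 1 mouse left out, the *Med23* set gave -0.58 to 0.18 for *Fosb* and -0.20 to 0.61 for *Jun*, and the *Runx2* set gave -0.34 to 0.14 for *Egr1*, -0.32 to 0.0343 for *Egr3*, -0.0239 to 1.05 for *Fosb* and -0.29 to 0.31 for *Atf3*. The differences of *Jun* and *Junb* ranged from -0.47 to 0.34 and from -0.38 to 0.0643. Of the 9 correlations, 0 passed as reported, 2 with the same sum and 0 to 2 with 1 mouse left out. Depth limits *Egr2* (about 11 to 72 fragments), *Fosb* (22 to 249) and *Atf3* (35 to 194) most.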

Other observations

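Replicate 3 of the *Runx2*+/- mice and replicate 3 of the *Med23*-/- mice stood above the other mice of their own group for some further early response genes. For others they were the lowest of their group. *Irf1* stood at 11.2, 9.19 and 7.19 FPKM in *Runx2*+/- mice and at 11.1, 12.3 and 9.35 FPKM in *Med23*-/- mice. *Plk2* stood at 13.4, 12.9 and 10.3 FPKM and at 14.0, 12.7 and 11.8 FPKM. How many genes of the list went each way was not counted. *Per1*, a clock gene induced by glucocorticoids, stood at 7.44, 10.3 and 22.2 FPKM in *Runx2*+/- mice and at 8.23, 6.70 and 16.7 FPKM in *Med23*-/- mice. *Cebpd* stood at 13.8, 15.2 and 44.9 FPKM in *Runx2*+/- mice, *Sgk1*, a kinase induced by glucocorticoids, at 23.9, 28.5 and 48.5 FPKM, and *Dusp1* at 23.5, 25.5 and 43.6 FPKM. *Ccn1*, a secreted matrix protein, stood at 89.2, 121 and 202.6 FPKM in *Runx2*+/- mice and at 111, 129 and 261 FPKM in *Med23*-/- mice. Every *Runx2*+/- mouse, not replicate 3 alone, was above every WT mouse for *Per1*, *Sgk1* and *Ccn1* (a pattern of 10.7% of all tested genes). WT mice ranged from 4.804 to 6.04, from 15.9 to 18.3 and from 49.2 to 64.9 FPKM for these genes. None of them passed the test (limma, adjusted p = 0.191, 0.102 and 0.066). *Cebpd* and *Dusp1* overlapped with WT. In *Med23* controls *Per1* ranged from 6.51 to 10.7 FPKM and *Ccn1* from 67.3 to 161 FPKM, with groups that overlapped. *Egr1* in these 2 mice was 31.1 FPKM, beside 28.5 and 15.5 FPKM in the other *Runx2*+/- mice, and 7.35 FPKM, beside 6.58 and 6.38 FPKM in the other *Med23*-/- mice. These genes were named after their values had been seen, and what sets the 2 mice apart was not tested.

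Among the members, within-group deviations of *Egr2* and *Egr3* correlated at 0.88, those of *Ier2* with *Fos* at 0.82, *Ier2* with *Atf3* at 0.83 and *Ier2* with *Nr4a1* at 0.83, while *Jun* correlated at 0.78 with *Fos*, at -0.05 with *Egr3* and at -0.06 with *Junb*. The points are 12 mice that each share 1 library, and the values carry no test.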
